A study of Sus scrofa with 23 samples.

Results

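The hexosamine pathway and the enzyme that uses its product for O-GlcNAc were followed as RNA in the kidney cortex of newborn pigs. The 9 genes, PGM3, GFPT1, GFPT2, GNPNAT1, UAP1, NAGK, GNPDA1, GNPDA2 and OGT, were looked up by symbol among the 26687 gene symbols of the transcript table, and all 9 were found there. They are annotated with 30 transcripts, and all 9 passed the filter on low counts that left 20921 genes for testing. PGM3 had been chosen because it is lower in CF, so its difference between CF and the other pigs is given below as a description without a test. The other 8 are enzymes of the same pathway, and the set was drawn up with earlier results of these data known.

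Total RNA depleted of ribosomal RNA was sequenced from 23 newborn pigs, 1 library each. The labels give 11 CFTR-/- pigs (CF), 6 CFTR+/- pigs (HET) and 6 wild-type pigs (WT), and the 12 HET and WT pigs together form the non-CF group used in the study. CFTR encodes an anion channel of epithelia that is lost in cystic fibrosis, and the comparison asks how its loss at birth is reflected in gene expression of the cortex. The labels give neither sex nor litter. Each p-value below measures the spread between pigs and treats them as independent, although some may share a litter. The cortex is a mixture of cell types, and fewer cells of a type and less RNA per cell cannot be told apart in such samples.

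The pathway turns a small part of the cell's fructose-6-phosphate into UDP-GlcNAc, the activated sugar used for N-glycans, glycosaminoglycans, sialic acid and O-GlcNAc. GFPT1 and GFPT2 catalyse the first, rate-limiting step, in which glutamine gives its amide nitrogen to form glucosamine-6-phosphate. GNPNAT1 acetylates this sugar, PGM3 moves the phosphate from carbon 6 to carbon 1, and UAP1 joins the result to UTP. NAGK returns GlcNAc from glycan breakdown to the pathway, and GNPDA1 and GNPDA2 lead glucosamine-6-phosphate back to glycolysis. OGT places O-GlcNAc on serine and threonine residues of nuclear and cytosolic proteins, and OGA, which is no member of the set, removes it.

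Libraries held 32901281 to 52952273 estimated counts. CPM is the unit in which counts are set against the size of their library. With these unadjusted totals as the size, 3 counts correspond to 0.0567 to 0.0912 CPM. The CPM levels of the members use library sizes adjusted by normalization, so the values for 3 counts are only a rough guide beside them. The RNA of the targeted gene went against a simple loss. CFTR was at 1.27 to 3.67 CPM in libraries labelled WT, 9.4 to 17.5 CPM in libraries labelled HET and 12.5 to 23.5 CPM in libraries labelled CF, and the genotype terms below always mean the labels. Libraries also separated by pig number. Those of pigs 1 to 6 and 12 to 18 (6 CF, 3 HET, 4 WT, called earlier-numbered) lay between -0.8036 and 0.01205 on the second axis of a multidimensional scaling plot, and those of pigs 7 to 11 and 19 to 23 (5 CF, 3 HET, 2 WT, called later-numbered) between 0.3328 and 0.7322. The labels name no batch for these ranges. Markers of the proximal tubule, the main epithelium of the cortex, summed to 7660 to 14400 CPM in CF and 7210 to 12400 CPM in non-CF libraries, with 5 of 6 genes higher in CF. Of these 6, edgeR called 0 and found 1 at an unadjusted p under 0.05, and DESeq2 and limma-voom called 0. Markers of the distal tubule and Henle's loop (4 of 5 in the table) summed to 1080 to 1730 CPM in CF and 1130 to 2150 CPM in non-CF libraries, with 3 of 4 genes lower in CF. Of these 4, edgeR called 0 and found 3 at an unadjusted p under 0.05, DESeq2 called 3 and limma-voom 0. Collecting duct markers (5 of 5 in the table) summed to 254 to 522 CPM in CF and 286 to 410 CPM in non-CF libraries, with 3 of 5 genes higher in CF. Of these 5, edgeR called 0 and found 1 at an unadjusted p under 0.05, DESeq2 called 1 and limma-voom 0. Of all genes, 13.7% had an unadjusted p under 0.05, and DESeq2 called 2.33%. The part of these markers in the results below was not tested.

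Measured per transcript length, as TPM (estimated counts divided by effective length and scaled to a constant sum), all members were expressed in every library and spanned more than an order of magnitude. OGT was the most abundant at 41.8 ± 5.65 TPM (SD, n = 23), above GNPDA1 in 23 of 23 libraries. GNPDA1 followed at 21.5 ± 2.34 TPM and exceeded GFPT1, at 17.3 ± 2.28 TPM, in 21 of 23 libraries. GFPT1 was in turn above PGM3 in 23 of 23 libraries.

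The middle of the order was close. PGM3 at 11.4 ± 2.50 TPM was above UAP1, at 10.3 ± 1.92 TPM, in 15 of 23 libraries, and their mean log2 difference of 0.14 was smaller than its SD of 0.33. UAP1 was above NAGK, at 9.02 ± 1.21 TPM, in 15 of 23 libraries, with a mean log2 difference of 0.18 and an SD of 0.25. NAGK and GNPDA2, the latter at 8.90 ± 1.44 TPM, could not be ordered, since NAGK was higher in 12 of 23 libraries. These levels include transcripts not annotated as mRNA, with a median of 49.8% of NAGK TPM and 29.7% of GNPDA2 TPM, so the order given here is that of all annotated transcripts and not of mRNA alone. GNPDA2 and GNPNAT1, at 8.10 ± 1.29 TPM, differed by 0.14 with an SD of 0.14 on the log2 scale. GFPT2 was the least abundant at 3.02 ± 0.767 TPM, below GNPNAT1 in 23 of 23 libraries. Within the GFPT pair, cortex RNA was thus mostly GFPT1, in libraries of every label (18.8, 16.3 and 16.9 TPM in WT, HET and CF against 2.53, 2.63 and 3.51 TPM for GFPT2). By label, PGM3 averaged 14.3 TPM in WT, 12 TPM in HET and 9.55 TPM in CF, and its mean was above that of UAP1 in WT and HET and below it in CF. Mean TPM was lower in HET than in WT for every member but GFPT2, such as OGT at 39.8 and 42.8 TPM. In CPM, OGT was at 172 and 170 and PGM3 at 23.4 and 25.3 in HET and WT.

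**Figure D1:**
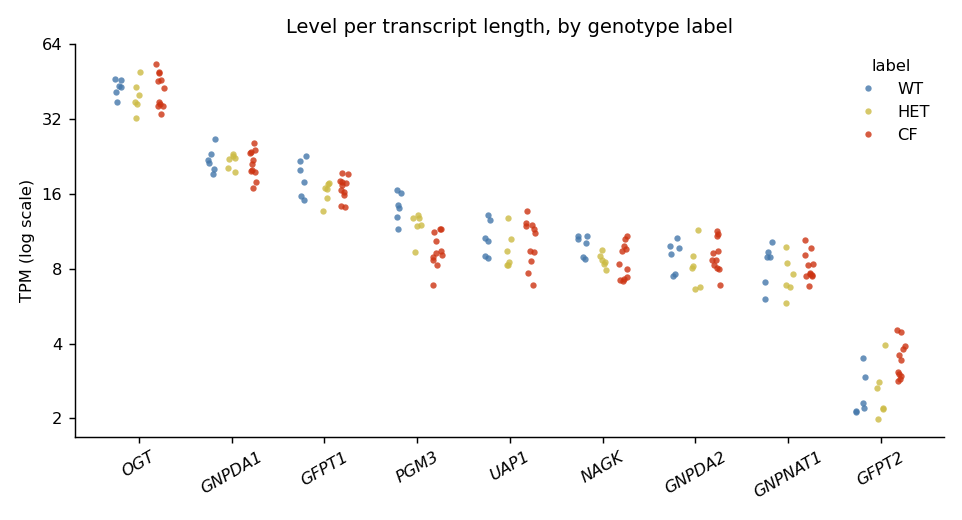
Level of each member in TPM on a log axis, 1 point per library (23 libraries, coloured by label), with members ordered by their mean. OGT leads at 41.8 TPM and GFPT2 is lowest at 3.02 TPM, while PGM3, UAP1, NAGK, GNPDA2 and GNPNAT1 lie close together between 11.4 and 8.10 TPM.

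PGM3 lies on chromosome 1 of the pig assembly Sscrofa11.1 (chr1:83003622-83029392, plus strand, gene ID 100156015) and is annotated with a single transcript of 14 exons. The start of RWDD2A, on the minus strand, lies 38 bases upstream, so that the genes stand head to head, and DOPEY1 ends 424 bases downstream on the opposite strand. The promoter is shown because PGM3 is the member chosen for its difference in CF and shares this stretch with RWDD2A. The 300 bases from 250 before to 50 after the RefSeq start (chr1:83003372-83003671, plus strand, Sscrofa11.1) read as follows, with matches to GGGCGG and CCAAT in capitals, the latter also as its reverse complement.
PGM3 promoter: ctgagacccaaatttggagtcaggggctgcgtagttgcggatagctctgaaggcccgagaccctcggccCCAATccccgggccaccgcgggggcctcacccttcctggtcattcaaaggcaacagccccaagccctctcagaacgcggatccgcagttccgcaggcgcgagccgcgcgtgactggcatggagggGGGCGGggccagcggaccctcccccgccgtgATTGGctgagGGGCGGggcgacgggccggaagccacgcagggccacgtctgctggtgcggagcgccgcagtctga

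This window was 70.0% G and C. GGGCGG, the core of the GC box, matched at -56 and -15 relative to the start, and CCAAT at -181 on the plus strand and at -25 on the minus strand. Both motifs are common. On both strands, GGGCGG was found in 50.6% of 19556 promoters of the same length and in those of 8 of 9 members, and CCAAT in 35.4% of promoters and in 5 of 9 members. The cyclic AMP response element TGACGTCA was found in 2.26% of promoters and in 1 member, UAP1. TGACGTGG, the core of an unfolded protein response element, was in 0.726% of promoters and in none of the 9. A match of letters is no measured site.

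PGM3 RNA was at 21.8, 25.4 and 28.5 CPM (lowest, median and highest library) in WT, 19.2, 23.4 and 27.0 CPM in HET and 14.4, 18.1 and 23.2 CPM in CF. All 11 of 11 CF libraries were below the non-CF median and 8 of 11 were below the lowest non-CF library, so the groups overlapped in 3 CF and 5 non-CF libraries. The mean was 18.1 ± 2.53 CPM (SD, n = 11) in CF and 24.4 ± 2.76 CPM (n = 12) in non-CF, a log2 fold change of -0.43 (SE 0.0775). Set against the WT libraries alone it was -0.48 (SE 0.0922), and against HET -0.37 (SE 0.0924). None of these contrasts carries a test, because PGM3 was chosen on CF against non-CF and the others share its CF libraries. The difference had the same sign in both number ranges. Earlier-numbered pigs had 18.8 ± 2.38 CPM (n = 6) in CF and 23.5 ± 2.81 CPM (n = 7) in non-CF, and later-numbered pigs 17.4 ± 2.74 CPM (n = 5) and 25.6 ± 2.40 CPM (n = 5). The log2 fold changes within these ranges were -0.32 and -0.56.

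Neither neighbour of PGM3 passed the test between CF and non-CF. RWDD2A, a gene of the RWD domain family, was at 8.32 ± 0.988 CPM in CF and 8.75 ± 0.873 CPM in non-CF (log2 fold change -0.07, 95% CI -0.23 to 0.08, edgeR adjusted p = 0.723). DOPEY1, which acts in membrane trafficking, was at 102 ± 6.77 and 101 ± 7.37 CPM (log2 fold change 0.02, 95% CI -0.08 to 0.12, edgeR adjusted p = 0.899).

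**Figure D2:**
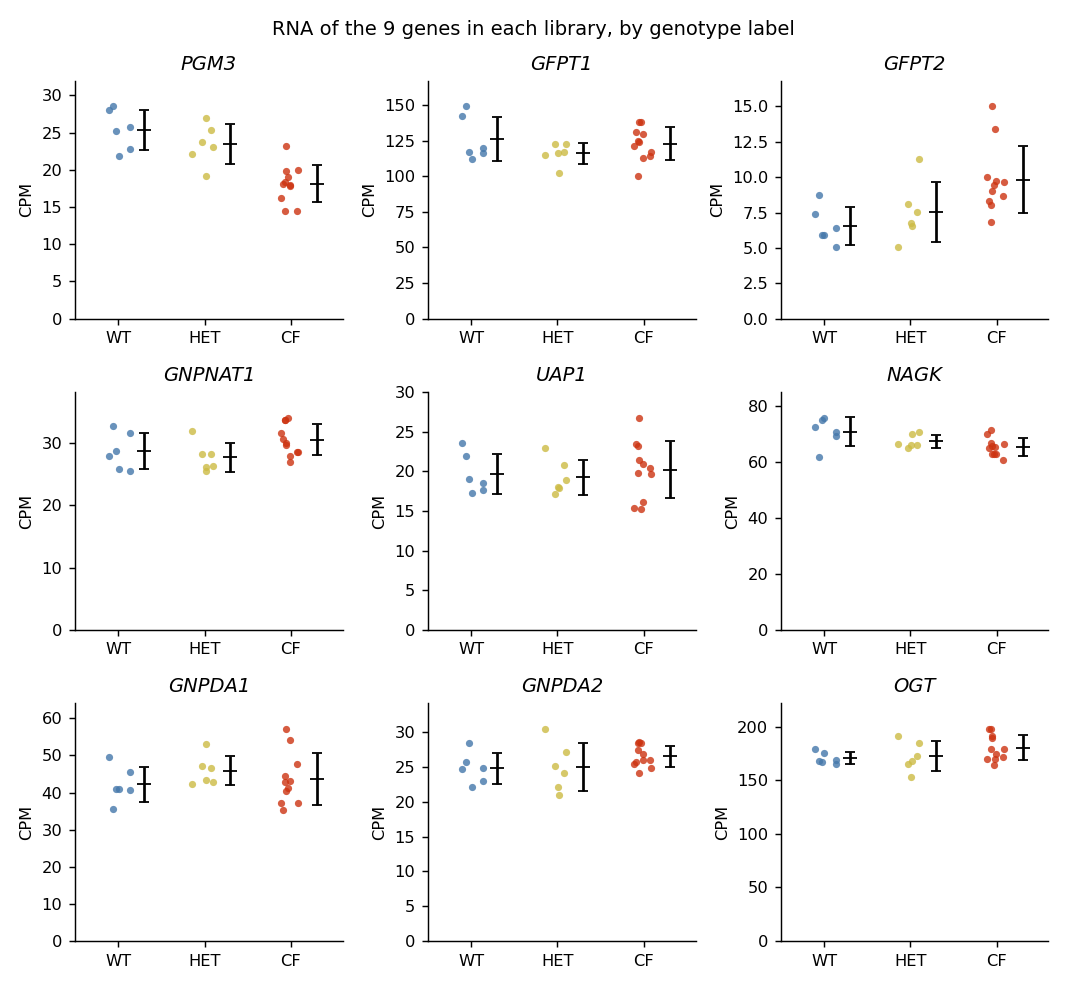
CPM of each member in libraries labelled WT, HET and CF (6, 6 and 11 libraries), 1 point per library with the mean and SD. PGM3, chosen for its lower level in CF, is at 14.4 to 23.2 CPM in CF against 19.2 to 28.5 CPM in non-CF, while GFPT2 lies the other way, at 6.85 to 15 CPM in CF against 5.04 to 11.3 CPM.

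Among the 8 members other than PGM3, the difference between CF and non-CF passed the adjusted limit of 0.05 for 0 in the edgeR test across all genes. The same test called 0.349% of all 20921 genes, 73 in number. That count was not stable, at 17 without the HET library of pig 21 and 203 without the CF library of pig 4, and at 0 in earlier-numbered and 473 in later-numbered pigs alone. At an unadjusted p under 0.05 it found 1 of the 8, GFPT2, against 13.7% of all genes. DESeq2 called 1 of the 8, also GFPT2, against 2.33% of all genes, and limma-voom 0, against 0.22%. The median log2 fold change over all genes was -0.000517 and the median absolute change 0.09.

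The entry step is encoded by paralogs of unequal level, of which GFPT2, the lower one, had the larger difference. GFPT2 was at 5.06, 6.14 and 8.77 CPM (lowest, median and highest) in WT, 5.04, 7.14 and 11.3 CPM in HET and 6.85, 9.45 and 15 CPM in CF. All 11 of 11 CF libraries were above the non-CF median, but only 2 were above the highest non-CF library. The means were 9.83 ± 2.37 CPM in CF and 7.05 ± 1.75 CPM in non-CF, a log2 fold change of 0.48 (SE 0.133, 95% CI 0.20 to 0.75). The edgeR p was 0.00136 and the adjusted p 0.0924. DESeq2 gave an adjusted p of 0.0288, and edgeR without the HET library of pig 13 gave 0.0346, while the other libraries left out in turn gave up to 0.156. The call for GFPT2 thus depended on the tool and on 1 library.

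GFPT1 was at 112, 119 and 149 CPM in WT, 102, 117 and 123 CPM in HET and 99.9, 124 and 138 CPM in CF. The CF libraries spanned nearly the same range as the non-CF libraries (log2 fold change 0.02, 95% CI -0.11 to 0.15, edgeR adjusted p = 0.943). The direction was not fixed, and a length correction turned it to -0.02.

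Neither step next to PGM3 passed the test. GNPNAT1, which acts just before PGM3, was at 25.5, 28.4 and 32.7 CPM in WT, 25.5, 27.3 and 31.9 CPM in HET and 27.0, 30 and 34.1 CPM in CF. Its log2 fold change was 0.11 (95% CI -0.01 to 0.23, edgeR adjusted p = 0.395), with 9 of 11 CF libraries above the non-CF median, and it was 0.19 in earlier- and 0.02 in later-numbered pigs. UAP1, which acts just after PGM3, was at 17.3, 18.8 and 23.6 CPM in WT, 17.1, 18.4 and 23 CPM in HET and 15.3, 20.4 and 26.8 CPM in CF. Of 11 CF libraries 7 lay within the non-CF range, 3 below it and 1 above (log2 fold change 0.06, 95% CI -0.13 to 0.24, edgeR adjusted p = 0.848). The value came to 0.01 without the CF library of pig 1 and to 0.0012 in later-numbered pigs alone.

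The salvage kinase NAGK varied least of the members, with a residual SD of 0.0740 log2 CPM within label and number range, where GFPT2 had 0.327. NAGK was at 61.8, 71.6 and 75.8 CPM in WT, 64.8, 66.3 and 70.7 CPM in HET and 60.8, 65.3 and 71.5 CPM in CF. Of 11 CF libraries, 9 were below the non-CF median, and the log2 fold change between CF and non-CF was -0.08 (95% CI -0.17 to 0.01, edgeR adjusted p = 0.426). GNPDA1 was at 43.7 ± 6.96 CPM in CF and 44.1 ± 4.62 CPM in non-CF (log2 fold change -0.01, 95% CI -0.17 to 0.15, edgeR adjusted p = 0.974). GNPDA2 was at 26.5 ± 1.55 CPM in CF and 24.9 ± 2.79 CPM in non-CF, with 10 of 11 CF libraries above the non-CF median (log2 fold change 0.09, 95% CI -0.03 to 0.21, edgeR adjusted p = 0.529).

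The annotated spans of 3 of these genes, introns included, overlap another gene. GNPNAT1 shares 3333 bases with STYX on the opposite strand, NAGK 3986 bases with PAIP2B, and GNPDA1 3330 and 5569 bases with the noncoding genes LOC110259525 and LOC106509594. The library kit marks strand, but the strand setting used for quantification is not given in the sources used here. How much of each overlap lies in exons was not computed, so its effect on the levels of these genes is uncertain.

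OGT was at 165, 169 and 179 CPM in WT, 153, 170 and 191 CPM in HET and 164, 179 and 198 CPM in CF. Of 11 CF libraries, 10 were above the non-CF median, and the log2 fold change of 0.07 had a 95% CI of -0.02 to 0.17 (edgeR adjusted p = 0.517). OGA, listed in the table under its older symbol MGEA5, was at 159 ± 14.9 CPM in CF and 150 ± 13.6 CPM in non-CF, a log2 fold change of 0.08 (95% CI -0.04 to 0.21, edgeR adjusted p = 0.568). Neither the writer nor the eraser of O-GlcNAc passed the test.

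**Figure D3:**
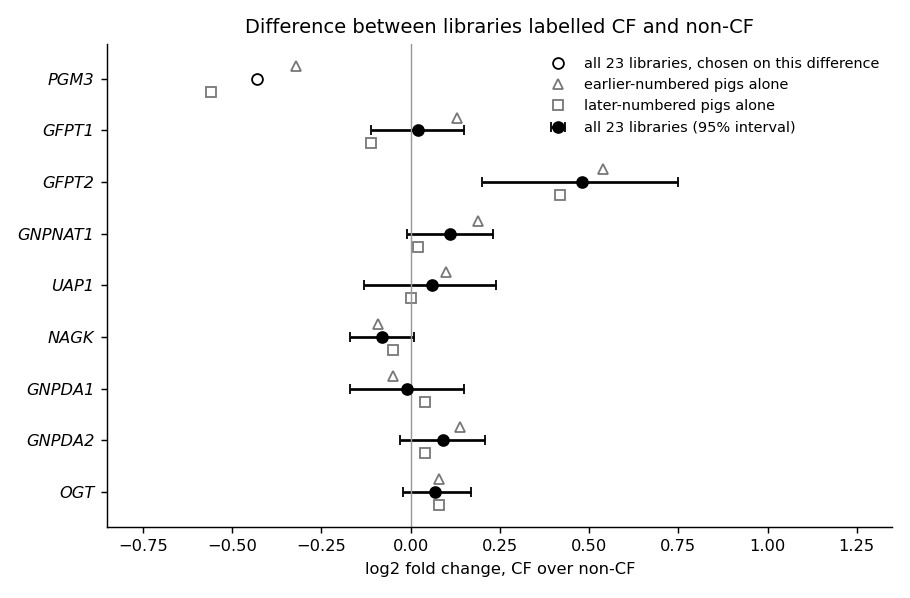
Log2 fold change of each member between CF (11 libraries) and non-CF (12 libraries), with 95% confidence intervals of the edgeR fit for the 8 tested members, an open point without interval for PGM3, and further points for each number range alone. Only the interval of GFPT2, 0.20 to 0.75, lies apart from 0, and PGM3 sits at -0.43.

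HET was set against WT to ask about the loss of 1 allele. PGM3 was chosen on another contrast, of CF with both labels together, although the same HET and WT libraries enter it. The edgeR test called 0 of 9 members, and 0 of 9 had an unadjusted p under 0.05, nor did DESeq2 or limma-voom call any. Over all genes it called 0.00478%, and 7.99% had an unadjusted p under 0.05. PGM3 was at 23.4 ± 2.71 CPM in HET and 25.3 ± 2.69 CPM in WT (n = 6 each), a log2 fold change of -0.11 (95% CI -0.33 to 0.10, edgeR adjusted p = 0.813). Of 6 HET libraries 5 were below the WT median, and an exact 2-sided permutation test of log2 CPM gave p = 0.247. GFPT2 had a log2 fold change of 0.20 (95% CI -0.18 to 0.58, edgeR adjusted p = 0.813). The remaining members lay between -0.12 for GFPT1 and 0.12 for GNPDA1. The HET and WT libraries did not overlap in 0.703% of genes, and overlapped for all 9 members.

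The separate contrasts with each control label share the 11 CF libraries and are given side by side. Against WT, edgeR called 0 of 8 members (0.349% of all genes) and 2 of 8, GFPT2 and NAGK, at an unadjusted p under 0.05 (14.1% of all genes). DESeq2 called 1, GFPT2 (2.75% of all genes), and limma-voom 0 (0.315%). GFPT2 had a log2 fold change of 0.58 (95% CI 0.24 to 0.92, edgeR adjusted p = 0.0974), and NAGK of -0.11 (95% CI -0.22 to -0.01, edgeR adjusted p = 0.301). Against HET, edgeR called 0 of 8 members (0.0% of all genes) and 1 of 8, GFPT2, at an unadjusted p under 0.05 (9.89% of all genes). DESeq2 and limma-voom called 0. GFPT2 there had a log2 fold change of 0.38 (95% CI 0.05 to 0.72, edgeR adjusted p = 0.446). For PGM3, 10 of 11 CF libraries were below the lowest WT library and 8 of 11 below the lowest HET library, given as a description. In no member did the CF and non-CF libraries separate completely, which 0.00478% of all genes did.

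The split by pig number moved many other genes, but no member passed the test. Between later- and earlier-numbered pigs, edgeR called 9.91% of all genes, with 26.7% at an unadjusted p under 0.05. It called 0 of 9 members and 0 of 9 at an unadjusted p under 0.05, and DESeq2 and limma-voom also called 0. Their log2 fold changes ran from -0.16 for GFPT2 (95% CI -0.43 to 0.11) to 0.09 for UAP1 (95% CI -0.09 to 0.28). PGM3 was at 0.02 (95% CI -0.14 to 0.19, edgeR adjusted p = 0.889).

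The CF difference itself was compared between the number ranges with an interaction term. PGM3 carries no test here, since its CF difference chose it. Of the other 8 members it called 0 (0.0191% of all genes), in DESeq2 and limma-voom as well, and 1 of 8, GFPT1, had an unadjusted p under 0.05 (10.1% of all genes). GFPT1 was at 130 ± 6.64 CPM in CF and 120 ± 12.4 CPM in non-CF among earlier-numbered pigs, and at 114 ± 8.75 and 123 ± 14.7 CPM among later-numbered pigs. Its log2 fold changes of 0.13 and -0.11 differed by -0.24 (95% CI -0.47 to -0.00017, edgeR adjusted p = 0.492). For PGM3 the log2 fold changes within the ranges differed by -0.24 (SE 0.152). For GFPT2 the log2 fold changes within the ranges were 0.54 and 0.42.

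Variation between pigs within the same label and number range was then compared between members. Residuals of log2 CPM shared library, depth and tissue composition, so these correlations are descriptive. No values over all pairs of genes are given beside them, so whether they are unusual is not shown. Of 36 pairs of members, 21 had a positive and 14 a negative Pearson r at 2 decimals, with a median of 0.12 and 4 pairs at 0.5 or above. The closest pair was UAP1 with OGT (r = 0.79, Spearman rho = 0.78, n = 23), followed by PGM3 with GFPT1 (r = 0.75, rho = 0.74). Without the 2 libraries farthest from the median, these were 0.83 and 0.79. GNPNAT1 with GNPDA2 reached 0.59 (rho = 0.60), and GFPT1 with GFPT2 0.52 (rho = 0.50), which came to 0.53 and 0.41 without the 2 farthest. PGM3 with its flanking steps gave -0.03 for GNPNAT1 and 0.41 for UAP1, which came to -0.12 and 0.24 without the 2 farthest libraries. NAGK ran opposite to the entry step, with r = -0.53 to GFPT1 (rho = -0.44), which came to -0.32 without the 2 farthest libraries.

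Over 18122 genes with a mean of at least 1 CPM, the residuals most like those of PGM3 were those of ACTL6A, a subunit of chromatin remodelling complexes (r = 0.88, rho = 0.83), ISOC1 (r = 0.88, rho = 0.84) and LZIC (r = 0.87, rho = 0.75). Without the 2 farthest libraries r was 0.85, 0.81 and 0.80. Each of these genes had a lower mean in CF than in non-CF, given as a description without a test. The means in CF and non-CF were 22.4 and 24.7 CPM for ACTL6A, 22.1 and 23.4 CPM for ISOC1 and 27.4 and 28.5 CPM for LZIC.

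**Figure D4:**
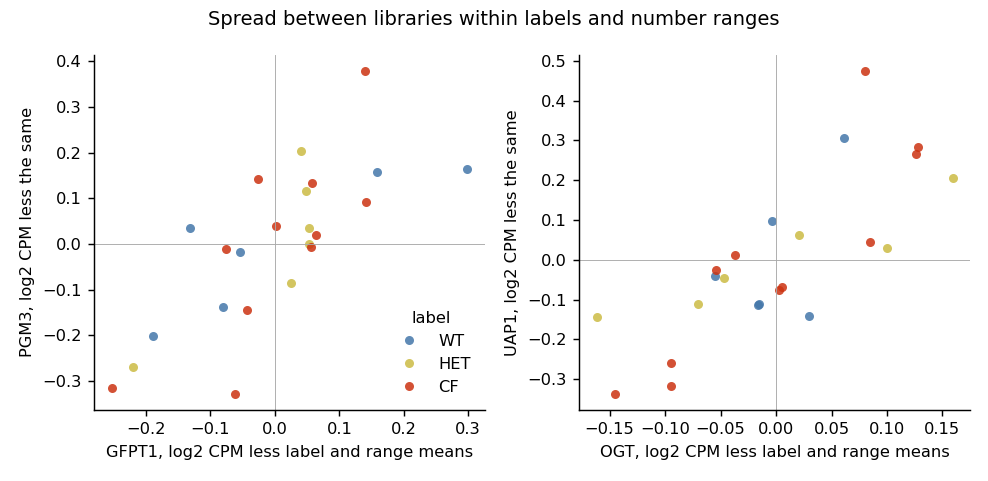
Residual log2 CPM (less the mean of label and number range) of PGM3 against GFPT1 and of UAP1 against OGT, 1 point per library, coloured by label (n = 23 each). Libraries with more PGM3 RNA than their group had more GFPT1 RNA (r = 0.75), and those with more UAP1 had more OGT (r = 0.79).

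Alternative coding segments inside the reading frame, as a skipped exon or an extended one, were taken from 4 members, and they are printed because transcripts with and without them were quantified separately. Annotated proteins of NAGK, GNPDA1 and GNPDA2 also differ in length, and their segments are not shown. Each is given 5′ to 3′ on the gene's strand with 9 flanking bases on either side in lower case and the segment in capitals, from RefSeq on Sscrofa11.1.
UAP1, 51-base exon, chr4:87966357-87966407, minus strand: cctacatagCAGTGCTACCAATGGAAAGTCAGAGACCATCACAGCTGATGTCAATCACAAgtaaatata
GFPT1, 54-base exon, chr3:73054094-73054147, plus strand: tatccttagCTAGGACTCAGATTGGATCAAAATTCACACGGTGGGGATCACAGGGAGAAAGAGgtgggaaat
GNPNAT1, 63-base exon, chr1:182415716-182415778, minus strand: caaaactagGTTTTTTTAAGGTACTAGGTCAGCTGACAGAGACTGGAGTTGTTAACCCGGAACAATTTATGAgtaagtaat
OGT, 30-base extension of an exon, chrX:57524241-57524270, plus strand: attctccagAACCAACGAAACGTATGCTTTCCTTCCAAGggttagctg

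All 4 segments hold whole codons, 17 in UAP1, 18 in GFPT1, 21 in GNPNAT1 and 10 in OGT, so each changes the protein by an insertion. In UAP1, an exon of this length distinguishes the known long and short forms of the enzyme, and a version of 48 bases, 3 bases shorter, is annotated too. Transcripts with the UAP1 exon made up 49.2 ± 4.56% of UAP1 TPM in WT (SD, n = 6), 48.6 ± 4.14% in HET (n = 6) and 46.9 ± 4.20% in CF (n = 11). The groups overlapped, with 40.5 to 53.8% in CF and 43.2 to 55.8% in non-CF libraries. Over all 23 libraries the 51-base form had a median share of 38.0% (25.6 to 48.6%) and the 48-base form 9.55% (3.03 to 22.5%).

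In GFPT1, an exon of this length is known from the muscle form of the enzyme. The transcript that holds it here took 84.0 ± 2.61% of GFPT1 TPM in WT, 79.5 ± 2.86% in HET and 85.3 ± 3.76% in CF cortex. That transcript is 8472 bases long and its partner without the exon 2969 bases, so its share reads the longer 3′ end as well as the exon. In GNPNAT1 the share was 85.7 ± 6.04% in WT, 87.3 ± 4.66% in HET and 88.4 ± 4.27% in CF. Most of it came from a transcript of 2120 bases (median 65.4% of GNPNAT1 TPM), and both transcripts without the exon are 7373 and 7438 bases long, so this share reads the 3′ end as well. In OGT it was 88.0 ± 3.64% in WT, 86.7 ± 2.08% in HET and 85.8 ± 4.86% in CF. The ranges of the labels overlapped for all 4 genes. These shares were not tested, and the deposited estimates per transcript carry no error of their own.

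**Figure D5:**
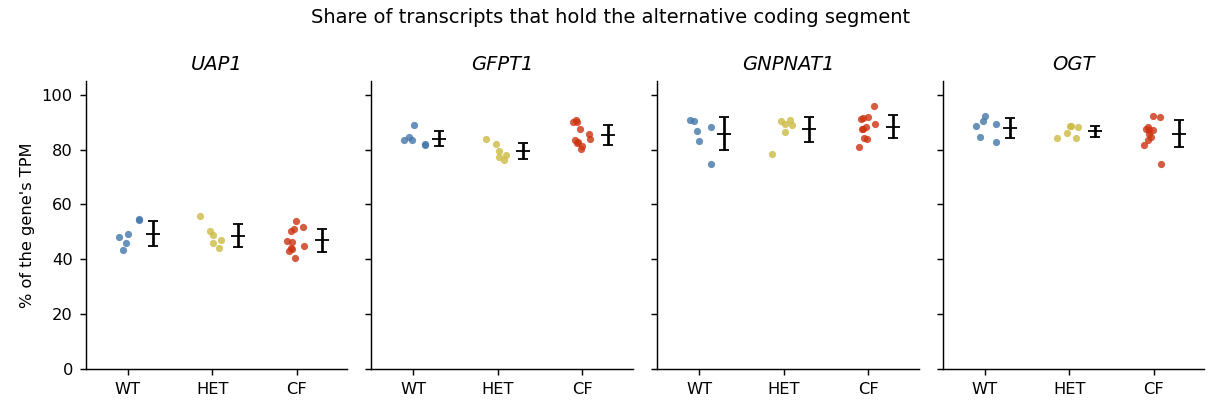
Share of each gene's TPM, in percent, from transcripts that hold the alternative coding segment, 1 point per library by label, with mean and SD. UAP1 is split near 46.9 to 49.2%, whereas GFPT1, GNPNAT1 and OGT are mostly in the longer coding form, and the labels overlap in all 4 genes.

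Genes around the members were read from lists of 47 genes, of which 45 were in the table and tested. Between CF and non-CF, edgeR called 0 of 45, against 0.349% of all genes. At an unadjusted p under 0.05 it found 11 of 45 (24.4%), 4 higher and 7 lower in CF, against 13.7% of all genes. DESeq2 called 2 of 45, HK1 and NANS, against 2.33% of all genes, and limma-voom 0, against 0.22%. The median log2 fold change of the 45 was -0.00036, near that of all genes.

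Of the genes that feed hexose phosphates into the pathway, all 7 had values below 0, with a median of -0.09, where 50.2% of all genes were below 0. The highest of them, HK3, was at -0.00036, smaller than the shift of -0.01 that upper-quartile scaling gave the median of all genes. Of these 7, edgeR and limma-voom called 0 and DESeq2 called 1, HK1. HK1, the hexokinase of most tissues, was at 137 ± 23 CPM in CF and 167 ± 17.2 CPM in non-CF (log2 fold change -0.29, edgeR adjusted p = 0.0966), and HK2 had -0.37 (edgeR adjusted p = 0.359). Among the 4 phosphohexomutase relatives of PGM3, of which edgeR, DESeq2 and limma-voom called 0, PGM2 had 0.31 (edgeR adjusted p = 0.183) and PGM2L1 0.07 (0.593). PGM1, which interconverts glucose-1-phosphate and glucose-6-phosphate, had -0.07 (0.758).

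The sialic acid branch, which starts from UDP-GlcNAc, held the smallest edgeR p of these pathway lists between CF and non-CF. NANS, the synthase of sialic acid-9-phosphate, was at 14.8 ± 2.89 CPM in CF and 20.3 ± 3.94 CPM in non-CF, a log2 fold change of -0.45 (SE 0.115, edgeR p = 0.000538, adjusted p = 0.0687). GNE, the enzyme that opens the branch, had -0.13 (edgeR adjusted p = 0.252). Of the 5 genes, edgeR and limma-voom called 0 and DESeq2 called 1, NANS. Of 7 other genes that handle O-GlcNAc or UDP-GlcNAc, all 3 tools called 0. The transporter gene SLC35B4 had a log2 fold change of -0.14 (edgeR adjusted p = 0.256).

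In the 3 remaining lists, edgeR, DESeq2 and limma-voom called 0 genes. In amino sugar salvage and breakdown, 5 of 6 genes were in the table and the median log2 fold change was 0.10. Among users of UDP-GlcNAc (11 of 12 in the table), DPAGT1, which starts the lipid-linked N-glycan precursor, had a log2 fold change of -0.13 (edgeR adjusted p = 0.303) and ALG13 of 0.20 (0.309). Regulators and targets of the unfolded protein response, a known inducer of hexosamine genes, gave 0.14 for ATF4 (0.503) and 0.08 for ATF6 (0.517).

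Between HET and WT, 0 of the 45 were called by edgeR, DESeq2 or limma-voom, and 2 (4.44%) had an unadjusted p under 0.05, against 7.99% of all genes. Between later- and earlier-numbered pigs, edgeR called 4 of 45, 2 higher and 2 lower, against 9.91% of all genes. NPL, the sialic acid lyase, and MGAT2, an N-glycan branching enzyme, were higher in later-numbered pigs by 0.41 and 0.28 (edgeR adjusted p = 0.0390 and 0.0219). PGM5 was lower, with a log2 fold change of -0.81 (edgeR adjusted p = 0.00445).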

How the data were processed

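Cortex RNA was prepared as stranded libraries depleted of ribosomal RNA. The authors deposited, per library, the estimated counts and the TPM values that kallisto gave for each of 77689 transcripts of Sscrofa11.1, without pooling pigs. The deposited estimated counts are not normalized (64.0% are not whole numbers), whereas the deposited TPM values are divided by effective length and scaled per library. Counts were summed per symbol and rounded. The filterByExpr filter, TMM normalization and the quasi-likelihood test of edgeR 4.0.16 (R 4.3.3) were applied, with Benjamini-Hochberg adjustment over all 20921 genes and 0.05 as limit. CF was set against non-CF in 1 fit, the 3 labels against each other in a second, and the number ranges in fits with genotype and with their interaction. The 95% intervals of log2 fold changes use the degrees of freedom of each gene's edgeR test. Log2 CPM used a prior count of 2. Intervals and floors do not cover errors of pseudoalignment.

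Alternatives were DESeq2 1.42.0, limma-voom (limma 3.58.1), 2 normalizations, no filter, a length offset, covariates, each number range alone, an exact Mann-Whitney U test and each library left out. Python 3.11.15, numpy 2.4.6, scipy 1.17.1, pandas 2.3.3, pysam 0.24.0 and matplotlib 3.10.9 were used, and the fits were tested on simulated data. Summed counts of any 2 libraries differed in at least 88.1% of symbols, so no library was a copy of another.

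The members and gene lists were chosen with earlier results of these data known. All members are named, with the genes of each list under the limit or else the 2 with the smallest p, the 3 genes most like PGM3, its neighbours, and OGA and PGM1 as named outside this rule. Some genes that this rule would name are withheld for evaluation and are not reported here. Sequences come from RefSeq on Sscrofa11.1. NAGLU, HAS2 and some markers were not matched and were not analysed here.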

Additional observations from a re-analysis of the deposited data

Results flagged for a closer look

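Groups of 6 libraries were checked for a library that stood apart, over 26 groups of member CPM and segment shares, and 2 were found where chance gives about 1 in 20. In each the gap to the nearest library, as a share of the group's range, exceeded the 95% limit of Dixon's test. The HET library of pig 15 had the lowest GFPT1 level of its label, 102 CPM, and without it the GFPT1 log2 fold change between CF and non-CF was -0.0021. The HET library of pig 19 had the lowest share of GNPNAT1 transcripts with the 63-base exon, 78.4%.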

How the results depend on the processing

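The count of members called between CF and non-CF, 0 of 8, became 1 (GFPT2) with DESeq2 and ranged from 0 to 1 with libraries left out in turn, the 1 being without the HET library of pig 13. Between CF and WT it became 1 (GFPT2, log2 fold change 0.59, adjusted p = 0.0224) with DESeq2. GFPT2 between CF and non-CF stayed at 0.40 to 0.56 with adjusted p of 0.0346 to 0.156 over the libraries left out, and at 0.42 to 0.54 with 0.0288 to 0.391 over the other alternatives. The PGM3 difference was -0.47 to -0.40 and -0.56 to -0.32 in the same order. Between HET and WT, values with libraries left out ran from 0.05 to 0.30 for GFPT2, -0.16 to -0.07 for PGM3 and -0.14 to -0.06 for GFPT1. Some directions turned. GFPT1 between CF and non-CF was -0.11 in later-numbered pigs alone, -0.02 with the length offset and -0.0021 to 0.05 with libraries left out. GNPDA1 was 0.04 in later-numbered pigs alone and -0.06 to 0.02 with libraries left out. PGM3 between number ranges was -0.0021 with upper-quartile scaling and -0.01 to 0.06 with libraries left out, and the GFPT2 interaction, at -0.12 with all libraries, -0.26 to 0.01. The cause was not tested. Other scalings moved the median of all genes by at most 0.01. No paired analysis was possible because the labels give no litter, by which the study paired pigs in its metabolite comparisons. GFPT2, at 5.04 to 15 CPM, rests on the fewest counts of the members and its estimate is the least precise.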
